A study of Mus musculus with 4 samples.

Results

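The 10 genes described here encode the ATG conjugation machinery of autophagy and its proteases: Atg7, Atg3, Atg10, Atg12, Atg5, Atg16l1, Atg4a, Atg4b, Atg4c and Atg4d. They were chosen by name, out of 21887 protein-coding genes on chromosomes 1 to 19, X and Y of the GRCm38 annotation. Every row of the deposited peak lists that touched a gene's annotated span, or the 5 kb on each side of it, was taken as belonging to that gene. The lists come from a ChIP-seq study of the transcription factor Deaf1 in C2C12, a mouse cell line of myoblasts, the precursors of muscle fibres. The cells were grown in DMEM with serum and without any further treatment named in the labels. It has 4 libraries: 2 immunoprecipitated with an anti-Deaf1 antibody and 2 inputs without antibody. The values below come from the peak list of each immunoprecipitated library and from a combined list for the pair. The inputs are seen only in the local background of each peak. No second condition and no Deaf1-depleted control was analysed here, so the values describe occupancy in 1 state of the cells. The labels number the replicates without saying whether they were separate cultures, and the spread between them may be technical.

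Autophagy encloses cytoplasm in a double-walled vesicle, the autophagosome. Its growing membrane is decorated by ubiquitin-like ATG8 proteins (the LC3 and GABARAP families), which are joined to the lipid phosphatidylethanolamine. Atg4 proteases trim the ATG8 precursors and later cut them off the membrane. Atg7 is the E1-like enzyme that activates both Atg12 and the ATG8 proteins. Atg10 passes Atg12 to Atg5, and Atg3 passes ATG8 to the lipid. The Atg12-Atg5 conjugate binds Atg16l1, and the complex acts as the E3-like enzyme that places lipidation on the membrane. In muscle, autophagy is known for clearing damaged organelles and for supporting regeneration by muscle stem cells. Deaf1 binds DNA through its SAND domain and is known to prefer unmethylated sites with the core TTCG.

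Deaf1 peaks were called in at least 1 replicate at 4 of the 10 genes (15.1% of all protein-coding genes by the same rule), and in both replicates at 3 (9.14%). Atg16l1, Atg5 and Atg12, whose products form the E3-like complex, each had 1 peak in each replicate and 1 region in the combined list. These regions were not equally reproducible: their scores in that list were 576, 403 and 121, and only Atg16l1 reached the stricter minimum of 540 used below. The Atg12 score was the lowest in the list, and its summits lay closer to the end of a neighbouring gene, Ap3s1. Whether the calls go with the role in the pathway was not tested. Atg7, the shared activating enzyme, had 1 peak in replicate 2 and none in replicate 1. Both E2-like genes, Atg3 and Atg10, and all 4 protease genes had no peak in either list. Each of the 7 peaks was at an end of the gene's annotated span, with its summit 9 to 111 bp from that end, and none lay deep in a gene body. A region of the combined list fell within 5 kb of 3 of the 10 genes, where the same rule called 9.03% of all protein-coding genes. Within 1 kb of a gene end the count was again 3, against 6.99%. A peak of replicate 1 was found at 3 of the genes (9.71% of all genes) and a peak of replicate 2 at 4 (14.6%). The set was too small, and chosen with earlier results known, for these counts to be tested against the background. The genes are also long: 8 of the 10 are longer than the median coding gene of 17.2 kb, which gives a window more room for a peak.

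Depth sets how well single peaks are known. Replicate 1 had 1860 peaks and replicate 2 had 3126, with a median of 22 and 23 fragments stacked at the summit. The background expected genome-wide was 1.80 and 2.09 fragments. Fold enrichment is the ratio of the summit's fragments to the local background, each with 1 added, as the authors' peak caller wrote it. Pileups are given with 95% exact Poisson intervals, which cover counting error only.

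**Figure D1:**
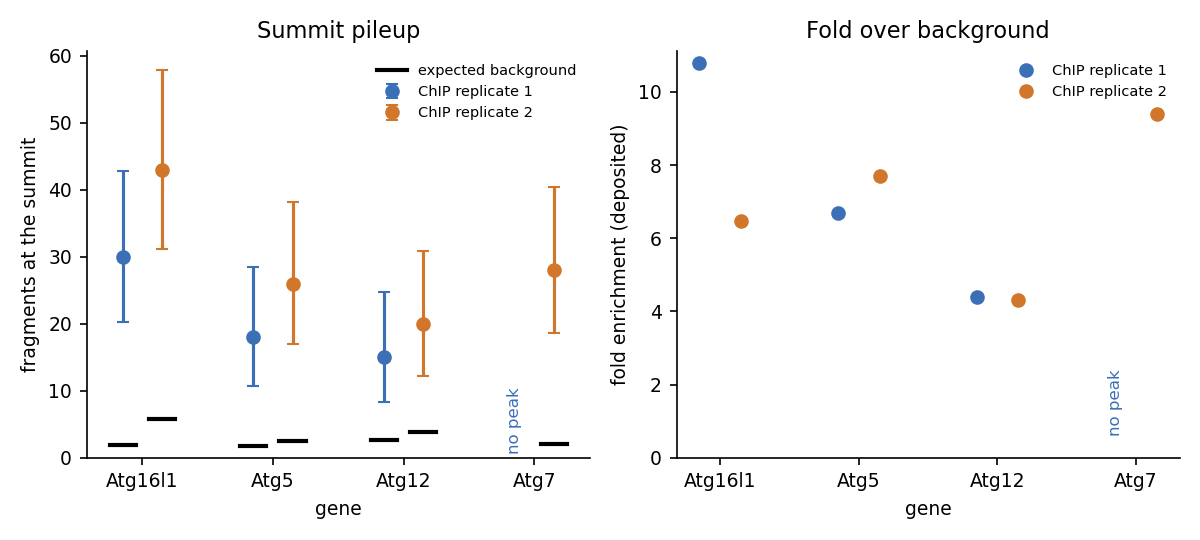
Left, fragments at the summit of each peak by gene and ChIP replicate, with 95% exact Poisson intervals as bars and the expected background as black lines. Right, the deposited fold enrichment of the same peaks. Atg16l1 had the most fragments in each replicate (30 and 43), its fold was 10.8 in replicate 1 and 6.47 in replicate 2, and Atg7 had a peak in replicate 2 only.

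Atg16l1 encodes the partner that brings the conjugation complex to the membrane. Its region spanned chr1:87755815-87756104, 290 bp at the lower-coordinate end of the gene (chromosome 1, 87756007 to 87792428). The summit was covered by 30 fragments in replicate 1 (interval 20.2 to 42.8) and by 43 in replicate 2 (31.1 to 57.9). These were the highest pileups of the set in each library. The fold enrichment was 10.8 in replicate 1 and 6.47 in replicate 2, a mean of 8.63 ± 3.06 (SD, n = 2). Thus the pileup was higher in replicate 2 and the fold was lower. The expected background was 1.87 fragments in replicate 1 and 5.80 in replicate 2, a ratio of 3.10.

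That ratio was high for the 2 libraries. Across 1551 pairs of shared peaks the median background ratio of replicate 2 to replicate 1 was 1.16, and 33 pairs (2.13%) had a ratio at least as high as that of Atg16l1. The fold ratio was 0.599, against a median of 1.13, and 5.09% of pairs had one as low. Many, though not all, replicate 2 backgrounds lie on a grid with a spacing of 0.967 fragments. The 5.80 at Atg16l1 is 6 such steps within a tolerance of 0.01 steps. The 3.87 at Atg12 is also on the grid, at 4 steps, whereas the backgrounds at Atg5 and Atg7 are off it. If 1 step is 1 input read, the Atg16l1 background in replicate 2 rests on 6 reads (exact Poisson interval 2.20 to 13.1). The summits of the 2 replicates were also far apart, at 87756016 and 87755900. They lay 9 bp inside and 107 bp outside the gene's end, 116 bp from each other, whereas the median pair was 12 bp apart and 5.22% of pairs were as far apart or farther. The 2 folds at Atg16l1 were therefore read at different positions within 1 region. Whether this or the local input accounts for the lower fold was not tested.

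By rank the Atg16l1 peak was above the middle of each list in −log10 p. It stood 327th of 1860 peaks in replicate 1 (−log10 p 26.3) and 761st of 3126 in replicate 2 (23.3). By fold it stood 268th in replicate 1, with 85.6% of peaks lower. In replicate 2 it was near the middle by fold, at 1544th with 50.6% lower. The combined list gave it an irreproducible discovery rate (IDR, here the global form: the estimated share of irreproducible regions among those ranked at least as high) of 0.041, the only one of the set below 0.05 (4.09% of all protein-coding genes had such a region within 5 kb). The nearest other protein-coding gene end, that of Inpp5d, was 35.4 kb from the replicate 2 summit. A long noncoding RNA, Gm33517, had an end 154 bp from that summit and 270 bp from the summit of replicate 1. The genes whose single-peak regions at a gene end were most like it in fold enrichment were Zfp960 (10.9 and 6.44 in replicates 1 and 2), Ppp4c (10.4 and 6.34) and Srbd1 (11.4 and 6.62). Likeness was the distance over these 2 log2 values, which was 0.02, 0.07 and 0.09. Their replicate 2 backgrounds were 6.77, 4.84 and 5.80 fragments. The background enters the fold by which they were picked, so this likeness follows in part from the choice.

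**Figure D2:**
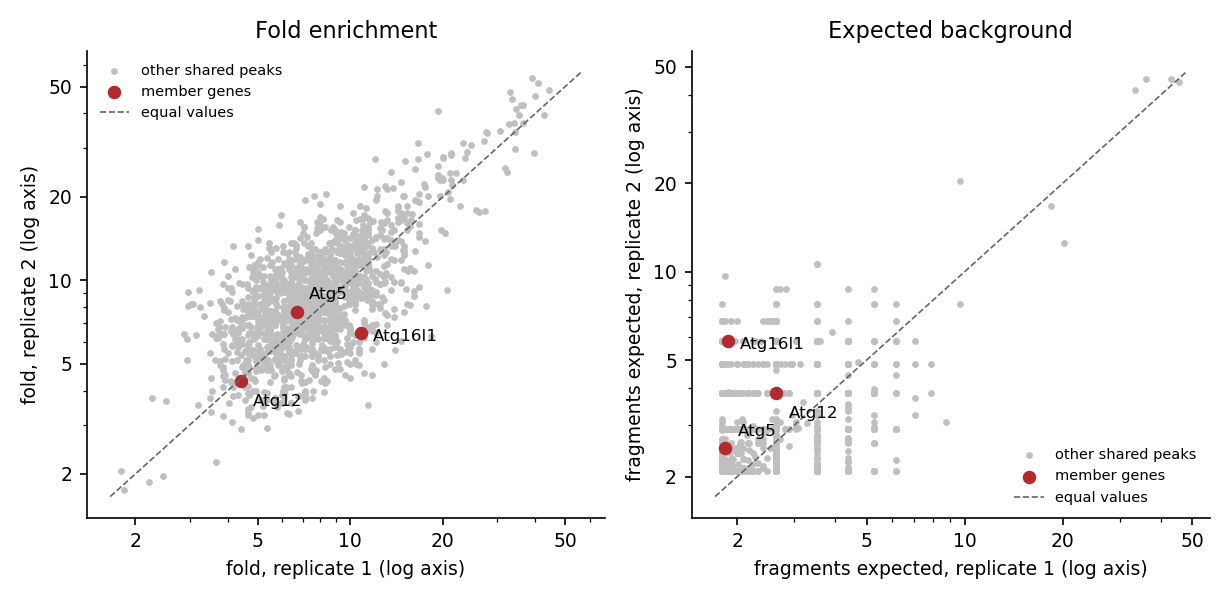
Each point is a pair of peaks shared by the 2 ChIP replicates, with replicate 1 on the x axis and replicate 2 on the y axis, both logarithmic. The left panel shows the deposited fold enrichment and the right panel the expected background in fragments. Atg5 and Atg12 sit among the other pairs, and Atg16l1 sits below the line of equal fold (10.8 and 6.47) and well above the line of equal background (1.87 and 5.80).

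Atg5 encodes the acceptor of Atg12. Its region spanned chr10:44268272-44268434, at the lower-coordinate end of the gene (chromosome 10, 44268322 to 44364299). The summit was covered by 18 fragments in replicate 1 (interval 10.7 to 28.4) and by 26 in replicate 2 (17.0 to 38.1). The fold enrichment was 6.69 and 7.70, a mean of 7.20 ± 0.71 (SD, n = 2). The replicate 1 value is near the middle of its list, where 46.4% of peaks had a lower fold, and the replicate 2 value is above the middle, with 66.6% lower. By −log10 p, 37.8% of peaks were lower in replicate 1 and 64.9% in replicate 2. The expected background was 1.84 and 2.51 fragments, near the genome-wide level in replicate 1 and 1.20 times that level in replicate 2. The summits lay 7 bp apart, 35 bp and 28 bp inside the annotated span. The IDR was 0.107, 788th of 1550 regions by score. The Atg5 peak therefore repeated in position and in fold.

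The sequence of the Atg5 region shows what lay under the summits. It is covered by RefSeq's promoter window for Gm40637 (GRCm38.p6), a noncoding gene on the opposite strand whose annotated start at 44268202 is 137 bp from that of Atg5 at 44268339. The region therefore lies at a pair of divergent starts, and its summits, 155 and 148 bp from the nearest end of Gm40637, were closer to Atg5. The stretch is written in the direction of Atg5, and the capitals mark the letters TGACGTCA, the palindromic cAMP response element bound by CREB and ATF factors.
Atg5 region, chr10:44268272-44268434, + strand: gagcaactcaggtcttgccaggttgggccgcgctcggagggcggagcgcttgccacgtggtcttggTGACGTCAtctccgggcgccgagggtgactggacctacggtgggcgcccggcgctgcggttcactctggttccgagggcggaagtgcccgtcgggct
This octamer ran from 44268338 to 44268345, starting 1 bp before the annotated start. Its centre lay 15.5 bp from the summit of replicate 1 and 8.5 bp from that of replicate 2. It was searched for after the sequence had been seen. Besides it, only the Deaf1 core was searched for, and the region may hold other known elements. The palindrome cacgtg, for example, stands shortly before the octamer and was not counted. TGACGTCA occurs in 1.79% of all 32851 RefSeq promoter windows of the same build (300 bases, from 250 before to 50 after an annotated start) and in 5.51% of the 1235 windows that hold the summit of a region of the combined list. Among windows with 20 to 28 CpG dinucleotides, a range around the 24 of the Atg5 window, the shares were closer, 5.97% with a summit and 3.84% without. The core TTCG, searched on both strands, is not among the letters of the Atg5 region or of the Atg5 promoter window.

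**Figure D3:**
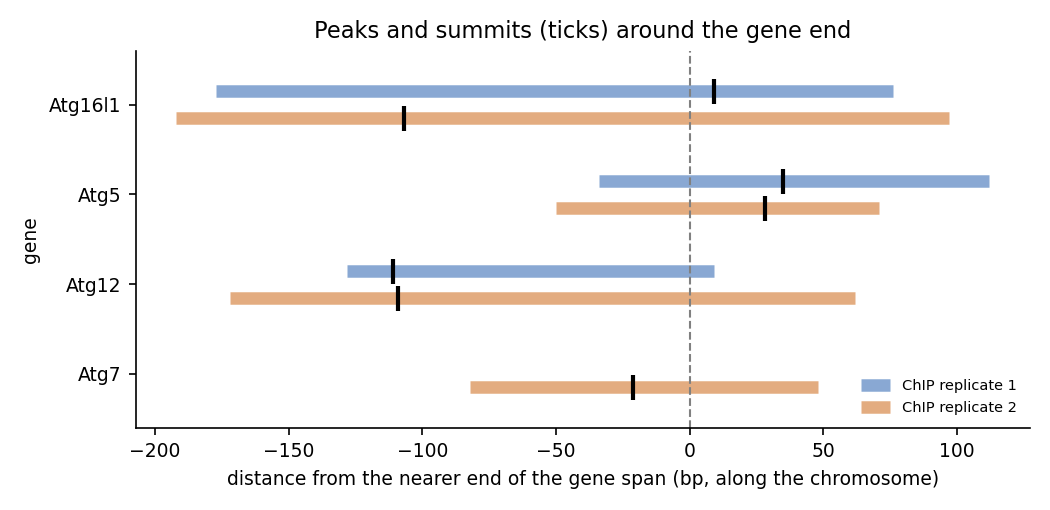
Peaks (bars) and summits (ticks) of each ChIP replicate at the 4 genes, as distance in bp from the nearer end of the annotated span, along the chromosome. The summits of the replicates lay 7 bp apart at Atg5 and 2 bp apart at Atg12, but 116 bp apart at Atg16l1.

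Atg12 encodes the ubiquitin-like protein that is joined to Atg5. Its region, chr18:46741552-46741786, was the weakest of the set and cannot be given to Atg12 alone. The summit was covered by 15 fragments in replicate 1 (interval 8.40 to 24.7) and by 20 in replicate 2 (12.2 to 30.9), over backgrounds of 2.64 and 3.87 fragments. These are 3 steps of 0.878 fragments in replicate 1 and 4 steps of 0.967 in replicate 2. If 1 step is 1 input read, the exact Poisson intervals are 0.619 to 8.77 and 1.09 to 10.2 reads. The fold enrichment was 4.40 and 4.31, a mean of 4.36 ± 0.06 (SD, n = 2). Its value thus repeated closely at a low level: 8.01% of replicate 1 peaks and 14.1% of replicate 2 peaks had a lower fold. The deposited −log10 q was 3.67 and 5.13. The IDR was 0.511, the lowest score in the combined list, which 377 of its 1550 regions share. The spans of Atg12 (chromosome 18, 46732417 to 46741724) and Ap3s1, which encodes a small subunit of the AP-3 adaptor complex, overlap by 31 bp. The summits lay 81 and 79 bp from the end of Ap3s1 and 111 and 109 bp from the end of Atg12. Ap3s1 was the only protein-coding neighbour in the set with an end closer to a summit than the gene itself.

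Atg7 is the E1-like enzyme of both conjugation branches. Its peak in replicate 2 spanned chr6:114643045-114643175, with 28 fragments at the summit (interval 18.6 to 40.5) over a background of 2.09. The fold enrichment was 9.39, the highest of the set in that library, and the −log10 q was 18.1. The summit lay 21 bp outside the lower-coordinate end of the gene (chromosome 6, 114643127 to 114860604), and the nearest end of another protein-coding gene, Hrh1, was 159808 bp away. In replicate 1 the nearest summit was 741 kb from the gene. Of all protein-coding genes, 5.44% had, like Atg7, a peak of replicate 2 and none of replicate 1 within 5 kb.

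The Atg7 peak was strong for a peak seen in 1 library. Of the 1551 replicate 2 peaks without a partner in replicate 1, it ranked 42nd by −log10 p, and their median was 18 fragments and a fold of 5.27. Among the 227 replicate 2 peaks within 2 units of its −log10 p of 22.5, 36 (15.9%) had no partner. The share depends on the matching: it was 30.9% of the 81 peaks with the same pileup, 10.5% of the 1121 with a pileup at least as high and 5.85% of the 820 with a −log10 p at least as high. Scaled by the ratio of the genome-wide backgrounds, its pileup corresponds to 24.2 fragments (16.1 to 34.9, the counting interval of replicate 2 scaled alike). This scaling leaves out any difference in enrichment between the libraries and is no forecast for replicate 1. The lowest summit that replicate 1 called at its genome-wide background had 10 fragments, but its background at Atg7 is not known. The list of replicate 1 does not give the pileup at a position without a peak, so the difference between the replicates at Atg7 was not tested. The peak was also not at the start that RefSeq's promoter table gives for Atg7: that start, 114671096, lies 28.0 kb further into the span, and its window held no summit.

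In each replicate the order by fragments was Atg16l1, then Atg7 where it had a peak, Atg5 and Atg12. In replicate 1 the intervals of all 3 genes overlapped, so their order is not resolved by counting. In replicate 2 the interval of Atg16l1 (from 31.1) lay just above that of Atg12 (up to 30.9), and all other neighbours overlapped. By fold the order of replicate 2 was Atg7, Atg5, Atg16l1 and Atg12, and that of replicate 1 was Atg16l1, Atg5 and Atg12. Atg12 was last by either measure in both libraries.

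At Atg3 and Atg10, the E2-like enzymes for ATG8 and Atg12, no peak was called, and the nearest summit of replicate 2 was 434 kb and 583 kb from the gene. The protease genes, which process ATG8 before and after lipidation, had no peak either. The nearest replicate 2 summit was 12.4 kb from Atg4b, 115 kb from Atg4d, 532 kb from Atg4c and 3916 kb from Atg4a. In replicate 1 these distances were 12.4 kb, 115 kb, 4586 kb and 7055 kb. A missing peak says that no summit passed the caller's threshold, not that Deaf1 was absent. Atg10 (289 kb), Atg7 (217 kb) and Atg4a (210 kb) are the longest genes of the set. None of the 3 had a region in the combined list, where 9.03% of all protein-coding genes had one within 5 kb. Whether calls depend on gene length was not tested.

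RefSeq promoter windows were found for 8 of the 10 genes, 10 windows in all. The core TTCG was held by 4 windows of 3 genes, Atg4a, Atg4b and Atg4c, and none of these genes had a peak within 5 kb. Of all 14682 windows with TTCG, 894 held the summit of a region of the combined list, so the core without a summit was the common case. Atg5, the only gene with both a window and a region in the combined list, held none. Among all windows 44.7% hold TTCG, and among those with a summit of the combined list 72.4% do. Windows with summits are richer in CpG dinucleotides, with a median of 24 against 7. Among windows with 20 to 28 CpG, 74.2% of 519 with a summit and 66.0% of 3934 without one hold TTCG. Atg3, Atg10 and Atg4d, which had no peak, held no TTCG in their windows either, and neither did Atg7. Atg12 and Atg16l1 were not searched, so Atg5 alone stands for the genes with a region, and nothing about the set can be read from these counts.

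A pair of windows shows the core without a peak. Most windows with the core likewise held no summit of the combined list. That of Atg4b is among the richest in CpG, with 55, more than in 99.7% of all windows. That of Atg4c holds 30 CpG and 3 matches, at −234, −46 and 22 bp from its annotated start (0 is the start base), of which the first is also the single match in the other, overlapping Atg4c window. Capitals mark TTCG or, on the other strand, CGAA. All these matches are part of the longer TTCGG, also searched on both strands, which 19.2% of all windows and 41.6% of windows with a summit hold. Among windows with 20 to 28 CpG these shares were 42.4% with a summit and 33.9% without.
Atg4b promoter, chr1:93754655-93754954, + strand: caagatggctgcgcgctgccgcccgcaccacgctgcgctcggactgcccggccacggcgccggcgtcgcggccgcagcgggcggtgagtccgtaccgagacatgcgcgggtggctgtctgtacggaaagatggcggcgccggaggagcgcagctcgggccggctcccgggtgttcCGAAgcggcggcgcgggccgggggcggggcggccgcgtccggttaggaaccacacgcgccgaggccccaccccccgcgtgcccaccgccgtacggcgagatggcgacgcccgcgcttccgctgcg
Atg4c promoter, chr4:99193897-99194196, + strand: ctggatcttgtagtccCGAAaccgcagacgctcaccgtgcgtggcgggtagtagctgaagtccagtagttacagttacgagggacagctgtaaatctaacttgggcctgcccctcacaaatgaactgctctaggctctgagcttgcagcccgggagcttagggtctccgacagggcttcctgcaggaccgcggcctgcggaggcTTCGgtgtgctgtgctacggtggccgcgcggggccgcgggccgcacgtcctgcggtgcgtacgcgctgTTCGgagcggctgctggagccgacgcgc
Neither sequence carried a peak in either list. A match is a description of the letters and not a binding site.

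**Figure D4:**
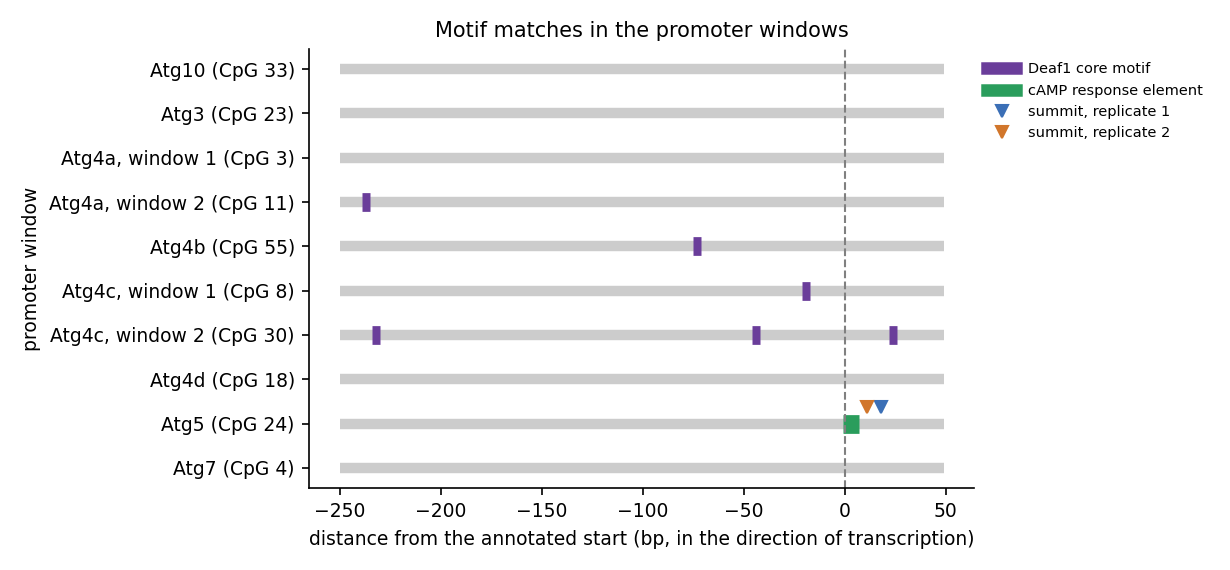
The 10 RefSeq promoter windows of 8 genes, as distance in bp from the annotated start in the direction of transcription, with the number of CpG dinucleotides after each name. Purple marks the core TTCG on either strand, green marks TGACGTCA, and triangles mark the Atg5 summits. The 3 genes with the core had no peak, and of all 14682 windows with the core 894 held a summit of the combined list. The Atg5 summits lay 18 bp and 11 bp from the annotated start beside the green octamer.

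The other steps of the pathway give a frame for these values. Of 32 further autophagy genes listed by role, 8 had a region of the combined list within 5 kb, where 9.03% of all protein-coding genes did. They were 1 of 5 initiation genes (Atg101), 2 of 7 nucleation genes (Becn1 and Pik3c3), 2 of 8 lipid transfer and membrane supply genes (Atg2b and Wdr45b), 2 of 5 ATG8 genes (Gabarap and Map1lc3b) and 1 of 5 receptors (Nbr1). The IDR was below 0.05 only at Pik3c3 (0.011), Atg2b (0.029) and Wdr45b (0.033), and the Pik3c3 summit lay 7190 bp from the gene's nearer end. It was 0.066 at Map1lc3b and 0.163 at Atg101. Becn1, Gabarap and Nbr1 had an IDR of 0.511, the lowest score in the combined list. Closer ends of neighbouring genes were not looked for at these 8 genes. Atg16l2, the paralogue of Atg16l1, and Tecpr1, which also binds the Atg12-Atg5 conjugate, had neither a region nor a peak of either replicate. Map1lc3b and Gabarap encode substrates of the conjugation machinery. The region at Map1lc3b had a fold of 6.33 in replicate 1 and 8.46 in replicate 2 (7.39 ± 1.51, SD, n = 2), close to the values at Atg5, but its summit lay 4763 bp from the gene's nearer end. The region at Gabarap had 3.85 and 3.23 (3.54 ± 0.44, SD, n = 2), below both values at Atg12.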

How the data were processed

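Peak lists of 2 Deaf1 ChIP libraries and 1 combined list were read. FastQC 0.11.8, BWA 0.7.17-r1198, MACS2 2.1.2 and the build mm10 are named per the submitters' processing notes, without their settings. The labels mention both fixed and native chromatin. The deposited fold is the ratio at a summit of ChIP over its local background, and the deposited −log10 p and q come from the authors' peak caller. The deposited score of the combined list falls with the logarithm of the IDR. Its 6 unnamed per-sample columns were not used.

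Pileup and background were recovered from fold and p as the pair that satisfies fold = (pileup + 1)/(background + 1) and a Poisson p, and exactly 1 whole number fitted 100% of peaks within 0.0002 in −log10 p. Recovery and gene windows were tested on simulated data. Overlap needed 1 bp. Gene spans, without strand, and promoter sequences came from RefSeq GRCm38.p6, the NCBI name for mm10. All 10 genes, any closer protein-coding neighbour and the 3 regions most like Atg16l1 were named by rule. Members, lists and motifs were chosen with earlier results of these data known. Python 3.11.15 and scipy 1.17.1 were used.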

Additional observations from a re-analysis of the deposited data

How the results depend on the processing

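The number of genes with a region of the combined list depended most on the IDR score. With a minimum score of 540 (IDR up to 0.05) it went from 3 to 1, Atg16l1, in the 5 kb window and from 3 to 1 within 1 kb of a gene end, where 4.09% and 3.13% of all protein-coding genes were called. With a minimum of 830 (IDR up to 0.01) it was 0 by both rules, with 0.53% and 0.393% of all genes called. Requiring −log10 q of at least 5 in both replicates left 2 genes, without Atg12, in the 5 kb window (8.17% of all coding genes) and at gene ends (6.29%). Keeping only regions with no closer end of another coding gene left the same 2, against 6.12% and 5.54%. The count stayed at 3 with flanks of 1 kb (7.68%) or 10 kb (10.7%), with the summit inside the window (9.01%) and within 2 kb of an end (7.58%). With 1 replicate left out the counts ran from 3 to 4, the fourth being Atg7 in replicate 2. Of the 8 genes with a promoter window, those with TTCG went from 3 to 1 when 2 matches were required. The count was 2 with TTCGG and 1 with TGACGTCA, a motif added after the sequence was seen. Of all promoter windows, 44.7% held TTCG, 16.7% held at least 2 matches of it, 19.2% held TTCGG and 1.79% held TGACGTCA. These shares are of windows, whereas the counts are of genes with any such window. By window, 4 of the 10 held TTCG. No paired analysis was possible because only the ChIP libraries, which form 1 group, have peak lists here. Counting error at 15 to 43 fragments limits the comparison of single peaks.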
